A study of Mus musculus with 12 samples.

Results

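The genes described here are those in which Faf2 KO cells differed from WT cells in the same direction with and without retinoic acid (RA). A gene belonged to the set when its 3 KO libraries lay all above, or all below, the 3 WT libraries in untreated cells and again, the same way, in RA-treated cells. Of 57010 genes in the table, 16502 passed the filter on low counts, and 1159 of these were apart in this way (7.02%), 552 higher (3.35% of tested genes) and 607 lower in KO (3.68%). The mean of the KO effects in the 2 treatments was then tested over all 16502 genes, and 531 of the 1159 also passed at an adjusted p under 0.05 (Benjamini-Hochberg). These 531 genes, 304 higher (1.84% of tested genes) and 227 lower (1.38%), are named the shared genes here, and make up 3.22% of tested genes. The test called 658 genes in all (3.99%), 380 higher (2.30%) and 278 lower (1.68%), and those not apart in both treatments are not described. Separation of the libraries and the test use the same values, so that one is no support for the other.

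The cells were NE-4C, a neuroepithelial line from the brain of p53-deficient mouse embryos at E9. RNA was sequenced from 4 groups of 3 libraries, 1 library for each of 3 passages. They were WT cells without induction (WT NO), Faf2 KO cells without induction (KO NO), and WT and KO cells given 1 µM all-trans RA for 24 h and harvested on day 3 (WT RA and KO RA). The KO cells were 1 line in which CRISPR/Cas9 removed exon 4 of Faf2. Since both treatments used this line, what the KO line carries beside the deletion cannot be told apart from the loss of FAF2, and the p-values measure the spread between passages.

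FAF2, also called UBXD8, is a protein of the ER membrane and of lipid droplets. It recruits the ATPase p97 (VCP), which pulls ubiquitinated proteins out of the membrane so that the proteasome can degrade them, a process named ER-associated degradation (ERAD). When misfolded proteins build up in the ER, the sensors PERK, IRE1 and ATF6 start the unfolded protein response and raise chaperones and ERAD factors. RA turns neuroepithelial cells towards neurons through nuclear receptors.

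The targeted gene was examined before the shared genes. Faf2 (ENSMUSG00000025873, chromosome 13, 54769596 to 54813238) stood at 50.01, 38.8 and 35.98 in WT NO, 21.03, 21.7 and 25.4 in KO NO, 35.1, 37.9 and 49.1 in WT RA and 36.1, 34.3 and 18.7 in KO RA, in counts scaled to a common total with TMM factors (CPM). All KO NO libraries were below all WT NO libraries, whereas KO RA overlapped WT RA, so that Faf2 itself is not in the set. Its mean log2 fold change was −0.66 ± 0.189 (SE), adjusted p = 0.0802 in edgeR's quasi-likelihood test, and the adjusted p was 0.0146 without KO RA replicate 3. The deleted exon is 1 of several that the gene count covers, so a transcript without it is still counted.

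Library totals ran from 17370049 to 30738694 counts. KO RA replicate 3 stood apart from the other 11 libraries. Its TMM factor was 0.394, against 0.872 to 1.28 in the others, mitochondrial genes held 23.5% of its counts, against 9.10 to 17.7%, and its 100 most abundant genes held 62.5%, against 37.1 to 50.4%. The number of shared genes and the counts in each list are therefore given also without it. With all libraries 3.99% of all tested genes were called. Without KO RA replicate 3, 7.58% were called higher and 8.38% lower, and list counts are to be read beside these shares. Of the defining progenitor markers, Nes (31.3 to 75.03 CPM), Sox2 (23.7 to 100.7), Otx2 (19.4 to 163) and Cdh2 (23.8 to 80.1) were present in all 12 libraries, while Pax6 (0.791 to 14.9) was low in the KO libraries and is described with the lower genes.

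Without KO RA replicate 3, 1314 of 17327 tested genes were called higher (7.58%) and 1452 lower (8.38%). In that fit 1151 genes were apart and higher (6.64%) and 990 were apart and lower (5.71%), and 886 and 820 of them passed the test (5.11% and 4.73%). All 304 higher and all 227 lower shared genes passed it again there, in the same direction. A group of 2 libraries is separated more easily than a group of 3, and the median SE of the mean effect was 0.202 in place of 0.303. Leaving out WT NO replicate 3 instead gave 473 higher and 317 lower shared genes. Leaving out any of the other 10 libraries gave 204 to 316 higher and 78 to 227 lower ones, and 173 higher and 62 lower genes were called in all 12 of these fits. Of the called genes named below, Ccnd3, Cdkn1b, Cdkn1c, Cdkn2b, Cnn1, Dlk1, Dnmt3a, Dppa3, Epha7, Gstm4, H19, Hsd17b11, Insig2, Lgals3, Luzp4, Mapt, Pex19, Rnf5, Rps10, Slc17a6, Tbx3, Terb1, Uhrf1 and Unc5a lost the call in at least 1 of these fits, in none of them the one without KO RA replicate 3.

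**Figure D1:**
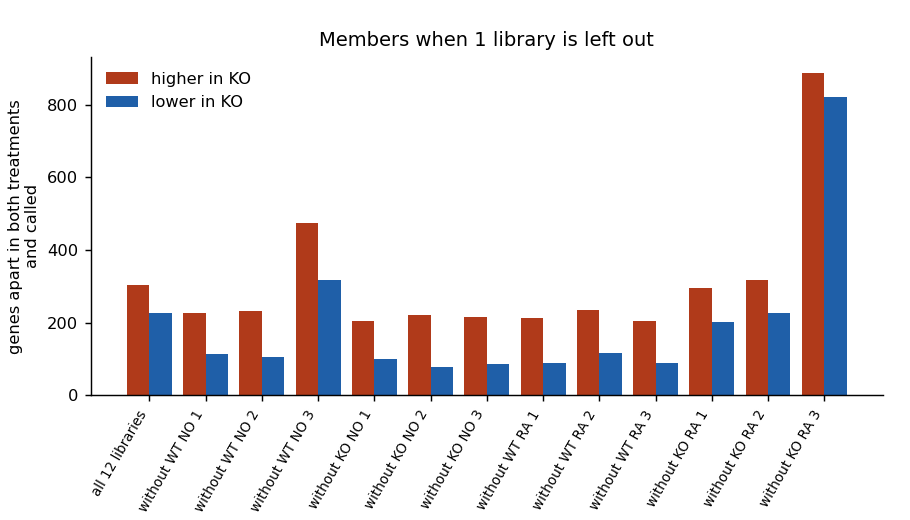
Number of genes apart in both treatments and called, higher (red) and lower (blue) in KO, with all 12 libraries or with 1 library omitted. The bars reach 886 and 820 without KO RA replicate 3, against 304 and 227 with all libraries.

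In the higher genes the median log2 fold change was 3.62, with a range from 0.51 to 9.25, and 189 of 304 were up at least 8-fold. In 75 of them every WT library held at most 3 counts, and with such genes set to their bound the median was 2.80. In the lower genes the median was −0.99, with a range from −8.37 to −0.49, and 110 of 227 were down at least 2-fold. The WT mean lay under 1 CPM in 207 of the higher genes (68.1%) and in 7 of the lower genes (3.08%), against 22.3% of all tested genes. A gene with so few counts in WT passed the filter on low counts through its KO libraries, so the choice of genes shapes these shares. With at least 10 counts required in every library, 80 higher and 139 lower genes were shared.

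Protein-coding genes made up 273 of the higher and 200 of the lower genes, and long noncoding RNAs 21 and 18. At the threshold, Crip1 was the last higher gene inside, with an adjusted p of 0.0497, and Tmem106a the first outside, with 0.0508. Among the lower genes these were Ptcd2 with 0.0490 and Tedc2 with 0.05001.

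**Figure D2:**
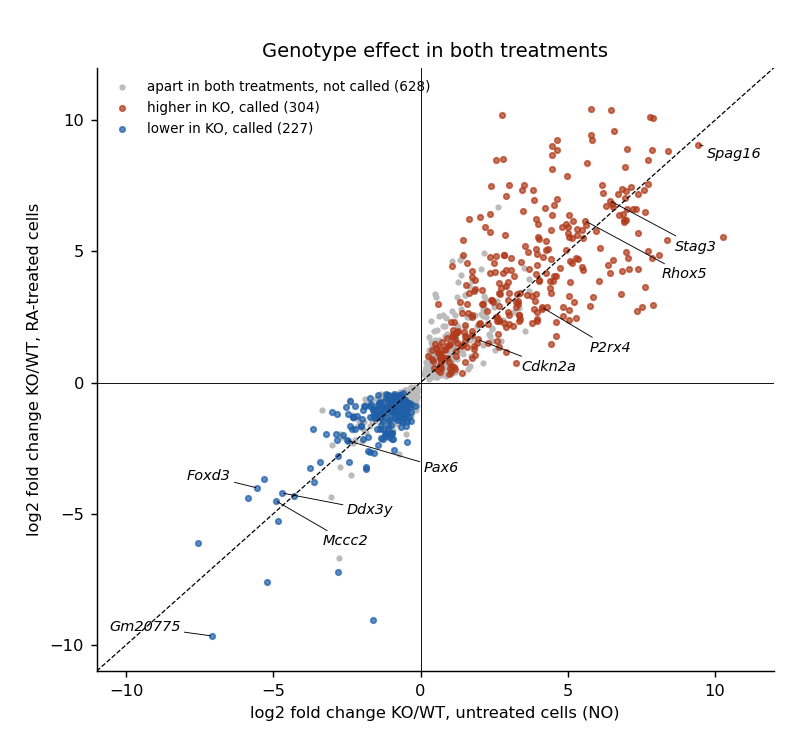
Log2 fold change of KO over WT in untreated cells (x axis) and in RA-treated cells (y axis) for the 1159 genes apart in both treatments, with the 304 higher (red) and 227 lower (blue) called genes. The dashed line marks equal effects. Points in other quadrants are absent because the rule asks for 1 direction.

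Genes of meiosis and the germline were the list with most higher genes. In germ cells, cohesins with their own subunits hold chromosomes, the synaptonemal complex joins homologues along this axis, and small RNAs and DNA methylation keep transposons silent. Of 72 genes of this list in the table, 37 were tested. Of these 37, 15 were called higher and 0 lower, 40.5% in all against 3.99% of all tested genes, and 16 were apart and higher. The median log2 fold change was 2.11, or 1.92 with genes at the floor set to their bound. Genes with 0 counts in all WT libraries, such as Smc1b, Tdrd1 and Terb1, passed the filter only through their KO libraries. They could only come out higher, so the choice of genes shapes these counts and the median. The median over all tested genes was 0.04. Leaving out KO RA replicate 3 gave 18 called higher and 1 lower. The unadjusted p was under 0.05 in 23 higher and 0 lower genes.

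Stag3, a cohesin subunit of meiotic cells (ENSMUSG00000036928, chromosome 5, 138278502 to 138310655), had the smallest p of all shared genes, together with Mir9-3hg and P2rx4. It stood at 0.141, 0.407 and 0.305 in WT NO, 22.5, 25.3 and 27.1 in KO NO, 0.144, 0.242 and 0.0955 in WT RA and 26.7, 23.9 and 9.81 in KO RA. Its mean log2 fold change was 6.69 ± 0.367 (SE), adjusted p = 1.76e-05. No KO library was below 9.81 CPM and no WT library above 0.407 CPM.

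Other parts of the meiotic chromosome axis rose as well. The cohesin subunit Rec8 stood at 0, 0 and 0.0916 in WT NO, 6.01, 5.15 and 4.08 in KO NO, 0.481, 0.0485 and 0 in WT RA and 6.05, 3.51 and 1.39 in KO RA, a mean log2 fold change of 5.71 ± 0.815 (SE), adjusted p = 0.00329. Without WT NO replicate 3 it was 7.19, and without WT RA replicate 1 7.04. The axis protein Hormad2 stood at 0.458, 0.111 and 0.0916 in WT NO, 10.1, 9.09 and 11.1 in KO NO, 0.288, 0.145 and 0.143 in WT RA and 7.13, 7.802 and 12.4 in KO RA. Its fold change was almost the same in both treatments, at 5.50 in untreated and 5.52 in RA-treated cells on the log2 scale. Smc1b, the meiotic form of the cohesin subunit SMC1, was at 0 counts in all WT libraries and at 0.198 to 1.02 CPM in the KO libraries, at least 4.201-fold in untreated and at least 3.55-fold in RA-treated cells.

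Genes of synapsis and of DNA break formation followed the same pattern. 4930447C04Rik, which encodes a central element protein of the synaptonemal complex also known as SIX6OS1, stood at 0.106, 0.259 and 0.0305 in WT NO, 13.2, 22.2 and 15.7 in KO NO, 0.0961, 0.291 and 0.0955 in WT RA and 12.1, 8.76 and 28.6 in KO RA. Its mean log2 fold change was 6.82 ± 0.504 (SE), adjusted p = 6.31e-05. Syce2, another central element protein, was already present in WT and stood at 3.38, 8.17 and 22.3 in WT NO, 73.6, 95.6 and 73.6 in KO NO, 6.59, 4.85 and 5.64 in WT RA and 76.1, 84.6 and 335 in KO RA. Iho1 and Mei4, needed for meiotic DNA breaks, rose by 3.29 and 2.51 on the log2 scale (adjusted p = 0.00193 and 0.00244). Terb1, which tethers telomeres to the nuclear envelope, was at 0 counts in all WT libraries and at 0.102 to 0.892 CPM in the KO libraries.

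Regulators of germ cells were among the higher genes too. Rbm46, an RNA-binding protein needed for meiotic entry, was the most uniform, at 6.27, 6.73 and 5.49 in WT NO, 22.3, 24.8 and 25.96 in KO NO, 5.34, 5.24 and 5.69 in WT RA and 28.9, 25.1 and 22.4 in KO RA. Its mean log2 fold change was 2.11 ± 0.136 (SE), adjusted p = 2.40e-05. Zcwpw1, a reader of histone marks at meiotic hotspots, stood at 26.9, 17.8 and 12.9 in WT NO, 128, 143 and 144 in KO NO, 23.6, 24.2 and 21.5 in WT RA and 78.2, 80.4 and 179 in KO RA. Meiosin, a partner of STRA8 at the onset of meiosis, was at 0 to 0.141 CPM in WT and at 0.595 to 3.13 CPM in KO libraries. Tdrd1, a Tudor protein of the piRNA pathway, had 0 counts in all WT libraries and 0.273 to 1.96 CPM in KO libraries, at least 9.08-fold in untreated and at least 3.03-fold in RA-treated cells. Dnmt3l, the partner of de novo DNA methyltransferases in germ cells, stood at 0.916, 1.03 and 0.793 in WT NO, 27.2, 17.03 and 19.2 in KO NO, 0, 0.145 and 0.239 in WT RA and 3.205, 0.818 and 2.78 in KO RA, so that its level in KO was lower after RA while its log2 fold change was 4.53 in untreated and 4.07 in RA-treated cells. Dppa3, a maternal and germ cell factor, rose by 4.31 (adjusted p = 0.0232) and was at 51.04 CPM in KO RA replicate 3, against 1.09 to 14.9 CPM in the other KO libraries, and without that library it rose by 2.85. Tex19.1 was apart but not called (2.65, adjusted p = 0.06097).

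**Figure D3:**
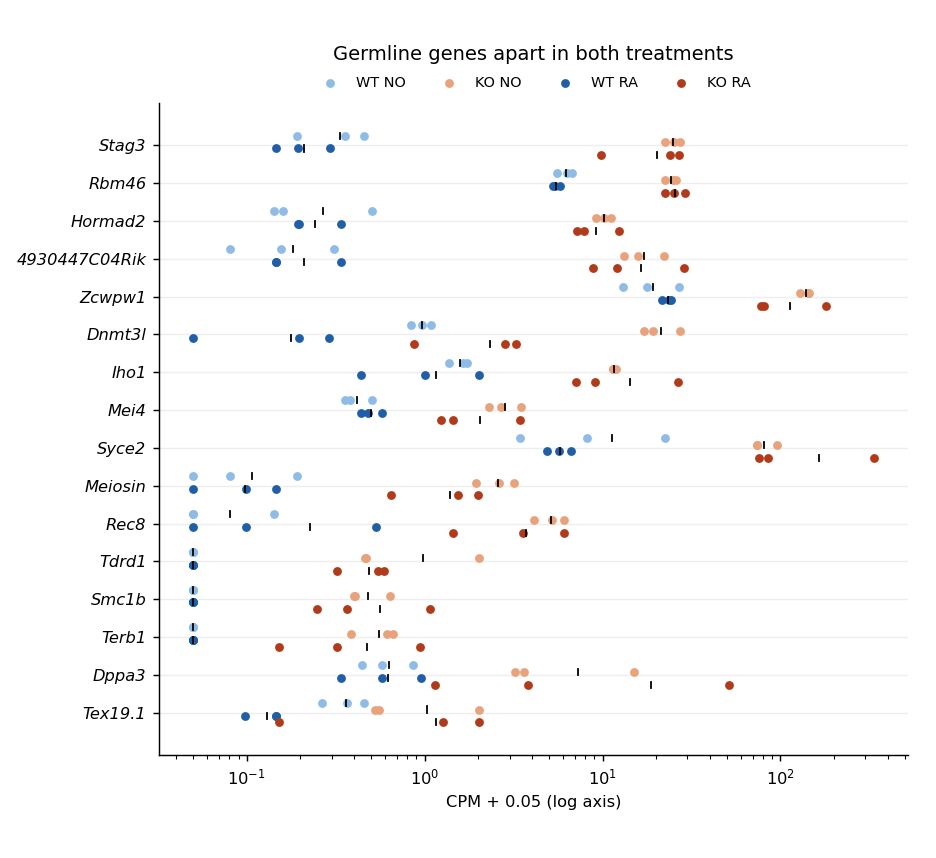
CPM (log axis, 0.05 added) of the 16 germline genes apart in both treatments in each library of the 4 groups, with the group mean as a black bar. Stag3, Hormad2 and 4930447C04Rik lie at or under 0.458 CPM in every WT library and at or above 7.13 CPM in every KO library.

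The proximal promoters of 5 of these genes, picked by hand, are shown. Repressors of germline genes are known to bind in the 250 bases before the start. They do so through E-boxes (CACGTG) and E2F sites (TCCCGC on either strand). Since the 5 were picked without a rule, they do not show how common the motifs are among the called germline genes. The sequences were read from the GRCm39 genome before the start of the GENCODE canonical transcript, on the coding strand, and motifs are in capitals.
Stag3 (chr5:138278350-138278599, plus strand): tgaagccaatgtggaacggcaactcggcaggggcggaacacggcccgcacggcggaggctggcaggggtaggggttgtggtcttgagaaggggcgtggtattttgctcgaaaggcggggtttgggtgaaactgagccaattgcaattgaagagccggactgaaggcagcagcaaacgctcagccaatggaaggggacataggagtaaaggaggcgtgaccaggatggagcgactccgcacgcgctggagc
4930447C04Rik (chr12:72964681-72964930, minus strand): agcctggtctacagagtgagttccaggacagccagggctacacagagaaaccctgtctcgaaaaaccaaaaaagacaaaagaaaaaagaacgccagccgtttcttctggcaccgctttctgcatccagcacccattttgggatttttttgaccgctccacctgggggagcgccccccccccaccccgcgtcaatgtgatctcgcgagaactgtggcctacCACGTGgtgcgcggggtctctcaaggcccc
Rbm46 (chr3:82783835-82784084, minus strand): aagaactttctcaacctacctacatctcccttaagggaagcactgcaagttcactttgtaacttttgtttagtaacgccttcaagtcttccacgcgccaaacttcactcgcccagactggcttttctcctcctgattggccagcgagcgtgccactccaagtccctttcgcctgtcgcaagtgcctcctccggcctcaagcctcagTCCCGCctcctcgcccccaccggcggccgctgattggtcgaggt
Meiosin (chr7:18852294-18852543, minus strand): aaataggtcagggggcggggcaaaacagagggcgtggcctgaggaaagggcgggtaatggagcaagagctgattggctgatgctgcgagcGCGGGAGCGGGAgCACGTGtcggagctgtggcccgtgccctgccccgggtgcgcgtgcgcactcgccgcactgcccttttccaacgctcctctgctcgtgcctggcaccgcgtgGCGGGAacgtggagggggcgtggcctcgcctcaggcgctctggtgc
Tdrd1 (chr19:56814391-56814640, plus strand): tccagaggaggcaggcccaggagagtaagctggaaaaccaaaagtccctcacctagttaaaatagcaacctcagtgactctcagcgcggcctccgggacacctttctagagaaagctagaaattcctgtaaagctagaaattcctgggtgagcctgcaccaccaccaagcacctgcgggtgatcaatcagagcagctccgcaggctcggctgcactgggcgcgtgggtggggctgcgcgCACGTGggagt
The E-box began 30 bases before the start of 4930447C04Rik, 11 bases before that of Tdrd1 and 147 bases before that of Meiosin, and the E2F site began 44 bases before the start of Rbm46. Meiosin held 3 E2F sites and Stag3 neither motif. Of the called germline genes not shown, Dppa3, Hormad2, Iho1, Mei4, Rec8, Smc1b and Zcwpw1 held neither motif. Dnmt3l held the E-box, and Syce2 and Terb1 held E2F sites. Among the 15 called germline genes, 4 promoters held the E-box (26.7%) and 4 an E2F site, against 7.06% and 24.0% of the promoters of all 16443 genes with a start. Among the 22 germline genes that were tested and not shared, 2 held the E-box and 6 an E2F site.

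Over all shared genes the E-box was not more frequent, with 3.64% of 302 higher and 6.17% of 227 lower genes. The promoters of higher genes held a median of 7 CpG dinucleotides in the 250 bases, against 11 in the lower genes and 11 in all tested genes, while the 15 germline genes had a median of 11. At least 10 CpG were found in 39.1% of higher genes, 59.9% of lower genes and 57.9% of all. These shares are descriptions of sequence and carry no test.

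Germline genes are kept silent in other cells by DNA methylation, by histone H3 lysine 9 methylation and by the Polycomb complex PRC1.6. Among 38 tested genes of these repressors, 0 were called higher and 2 lower, 5.26% in all and near the 3.99% of all tested genes. Their median log2 fold change was −0.03, and 4 were called higher and 6 lower without KO RA replicate 3. Dnmt3a, a de novo DNA methyltransferase, stood at 65.3, 82.7 and 120.1 in WT NO, 40.6, 33.9 and 35.04 in KO NO, 71.3, 68.3 and 73.6 in WT RA and 33.2, 32.7 and 10.3 in KO RA, a mean log2 fold change of −1.38 ± 0.272 (SE), adjusted p = 0.0172. Uhrf1, which brings the maintenance methyltransferase to replicated DNA, stood at 75.5, 72.4 and 54.8 in WT NO, 30.1, 29.4 and 31.9 in KO NO, 57.5, 51.3 and 60.2 in WT RA and 33.4, 29.98 and 12.1 in KO RA, a mean of −1.15 ± 0.225 (SE), adjusted p = 0.0169. Each KO library of both genes was under each WT library of its treatment. Ehmt2 was apart and lower without passing the test (−0.72, adjusted p = 0.1596, and 0.00819 without KO RA replicate 3). Uhrf1 and Ehmt2 lie on chromosome 17, where the median log2 fold change of all tested genes was −0.47. Dnmt3a lies among the first 54 tested genes of chromosome 12. Their median was −0.24 in untreated and −0.25 in RA-treated cells, and the part of these regional shifts in the 3 genes was not tested.

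The higher genes with the smallest p came from several pathways. P2rx4, an ATP-gated cation channel (ENSMUSG00000029470, chromosome 5, 122845541 to 122867803), stood at 2.78, 2.37 and 2.35 in WT NO, 35.2, 47.7 and 48.6 in KO NO, 4.28, 4.66 and 6.07 in WT RA and 36.9, 48.9 and 23.7 in KO RA, and its mean log2 fold change was 3.50 ± 0.212 (SE), adjusted p = 1.76e-05. Mir9-3hg, the host transcript of a miR-9 gene (ENSMUSG00000097023, chromosome 7, 79146444 to 79184154), stood at 0.176, 0.185 and 0.183 in WT NO, 13.7, 11.05 and 12.9 in KO NO, 0.577, 0.291 and 0.143 in WT RA and 5.33, 4.26 and 5.35 in KO RA. The log2 fold changes were 4.13 in untreated and 2.87 in RA-treated cells for P2rx4 and 6.08 in untreated and 3.86 in RA-treated cells for Mir9-3hg, and the difference between treatments was not called for either gene. The sugar transporter Slc50a1 (ENSMUSG00000027953, chromosome 3, 89175551 to 89177906) stood at 0.0704, 0 and 0.122 in WT NO, 10.1, 9.805 and 6.81 in KO NO, 0, 0.09699 and 0 in WT RA and 10.8, 10.4 and 11.6 in KO RA. Loxl1, a crosslinker of elastin, rose by 3.95 ± 0.306 (SE), adjusted p = 6.98e-05, and Galk2, a kinase of N-acetylgalactosamine, by 5.12 ± 0.399 (SE), adjusted p = 6.98e-05. In these 5 genes the highest WT library was below the lowest KO library over both treatments.

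Members of other gene groups were among the 15 higher genes with the smallest p as well. Rhox5, a homeobox gene on the X chromosome that is active in the reproductive tract and placenta, was at higher levels in KO cells, at 6.66, 4.77 and 1.19 in WT NO, 105, 289 and 207 in KO NO, 6.54, 5.24 and 4.49 in WT RA and 233, 302 and 642 in KO RA. The noncoding RNA Platr10 stood at 11.9, 10.3 and 7.26 in WT NO, 97.5, 105 and 102 in KO NO, 7.403, 9.36 and 4.49 in WT RA and 27.6, 43.4 and 44.1 in KO RA. The adhesion protein Mpzl2 was at 0 to 0.106 CPM in WT and at 2.08 to 10.5 CPM in KO libraries, and Itpripl2 at 0 to 0.0739 and 2.64 to 7.27 CPM. Since WT held at most 3 counts per library for Mpzl2 and Itpripl2, no fold change is given for them.

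The largest changes among genes of at least 1 CPM were in genes that WT cells did not detectably express. Spag16, a protein of the sperm axoneme, stood at 0 in all 3 WT NO libraries, 2.34, 3.73 and 3.69 in KO NO, 0 in all 3 WT RA libraries and 3.07, 3.07 and 1.49 in KO RA, at least 31.7-fold in untreated and at least 17.6-fold in RA-treated cells. Cavin3, a coat protein of caveolae, had 0 counts in WT and 0.810 to 12.6 CPM in KO libraries, at least 10.2-fold in untreated and at least 37.4-fold in RA-treated cells. The testis proteasome subunit Psma8 was at 0 to 0.0370 CPM in WT and at 1.49 to 12.4 CPM in KO libraries, and the lectin Lgals3 at 0 to 0.0916 and 0.375 to 18.8 CPM. For Cavin3, Psma8 and Lgals3 the highest KO value was that of KO RA replicate 3.

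Several enzymes of glutathione were among the higher genes. Glutathione transferases couple this tripeptide to reactive compounds, and glutathione peroxidases use it to reduce peroxides. Of 45 tested genes in a list of glutathione enzymes and NRF2 targets, 6 were called higher and 0 lower, 13.3% in all against 3.99% of all tested genes. The list did not move in 1 direction throughout, since 8 were called higher and 6 lower without KO RA replicate 3. Gstp1 stood at 8.804, 19.3 and 3.08 in WT NO, 149, 146 and 137 in KO NO, 8.17, 5.09 and 15.8 in WT RA and 109, 112 and 68.6 in KO RA, a mean log2 fold change of 3.56 ± 0.432 (SE), adjusted p = 0.00148. Gstm5 stood at 0, 0.111 and 0.122 in WT NO, 10.5, 11.4 and 6.701 in KO NO, 0.625, 0.242 and 0 in WT RA and 10.8, 9.64 and 126 in KO RA, with the highest value in KO RA replicate 3. Gpx7, a peroxidase of the ER lumen, stood at 0 in all 3 WT NO libraries, 8.29, 4.89 and 4.52 in KO NO, 0.337, 0 and 0.0955 in WT RA and 3.39, 3.41 and 14.3 in KO RA. Gpx3, a secreted peroxidase, stood at 0.599, 0.554 and 6.68 in WT NO, 13.1, 10.5 and 12.3 in KO NO, 0.529, 0.485 and 1.15 in WT RA and 37.3, 51.04 and 43.6 in KO RA, and its log2 fold change was 2.19 in untreated and 5.92 in RA-treated cells.

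Gstp2 (2.12, adjusted p = 0.00844) and Gstm4 (3.28, adjusted p = 0.0294) were called as well. Gstp1 and Gstp2 are adjacent on chromosome 19 and close copies of each other, and reads shared between such copies could have been split between them. The NRF2 target Txnrd1, a thioredoxin reductase, was apart in the other direction and not called (−0.76, adjusted p = 0.0901). Without WT NO replicate 3 the mean log2 fold change was 5.16 for Gpx3, in place of 4.05, and 4.45 for Gstm4. With all libraries the called genes of this list were transferases and peroxidases. The median over the list was 0.20.

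Enzymes of fatty acids and of peroxisomes changed in both directions. Among 25 tested genes of epoxide, acyl-CoA and aldehyde metabolism, 4 were called higher and 2 lower, 24% in all against 3.99% of all tested genes. Without KO RA replicate 3 the counts were 7 and 2. The shared genes of this list were 2 higher, Ephx2 and Acot6, and 2 lower, Acot7 and Mccc2. Ephx2, the soluble epoxide hydrolase of lipid epoxides, stood at 1.51, 1.07 and 0.549 in WT NO, 27.7, 22.2 and 21.2 in KO NO, 0.817, 0.6305 and 0.43 in WT RA and 10.6, 13.5 and 3.57 in KO RA, a mean log2 fold change of 4.19 ± 0.372 (SE), adjusted p = 1.69e-04. The thioesterase Acot6 was at 0 to 0.0478 CPM in WT and 0.375 to 0.859 CPM in KO libraries, whereas Acot7 was lower, with a mean log2 fold change of −0.95 ± 0.1596 (SE), adjusted p = 0.00809. Slc27a2, a gene from outside this list, activates very long chain fatty acids. It stood at 0.916, 0.407 and 3.02 in WT NO, 43.5, 56.1 and 58.7 in KO NO, 0.337, 0.339 and 0.239 in WT RA and 28.2, 22.3 and 16.3 in KO RA, a mean log2 fold change of 5.67 ± 0.453 (SE), adjusted p = 7.81e-05.

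Of 44 tested peroxisome genes, 6.82% were called, against 3.99% of all tested genes. They were 2 called higher, Ephx2 and the import receptor Pex19 (0.51, adjusted p = 0.0421), and 1 lower. The lower one was Phyh, which starts the breakdown of phytanic acid, at 28.98, 19.6 and 44.1 in WT NO, 7.704, 10.1 and 10.9 in KO NO, 18.9, 16.8 and 16.1 in WT RA and 10.8, 11.2 and 7.33 in KO RA. On lipid droplets, where FAF2 also resides, 1 of 27 tested genes was called higher and 1 lower, 7.41% in all. Without KO RA replicate 3 the called genes were 6 higher and 4 lower in the peroxisome list and 2 higher and 6 lower on lipid droplets. The higher one with all libraries, Hsd17b11, stood at 0.669, 0.296 and 7.36 in WT NO, 11.3, 8.501 and 8.65 in KO NO, 0.337, 0.824 and 0.191 in WT RA and 7.899, 10.6 and 3.57 in KO RA. Its WT NO value of 7.36 CPM in replicate 3 was far above those of the other WT libraries. Pnpla2, the triglyceride lipase ATGL, was apart and lower without passing the test (−0.49, adjusted p = 0.295, and 0.0296 without KO RA replicate 3). The coat protein Plin2 was apart and higher in the same way (1.31, adjusted p = 0.08897, and 0.0135 without it).

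In the ERAD pathway itself, 1 of 40 tested p97 cofactors and ERAD factors was called higher and 1 lower, 5% in all against 3.99% of all tested genes, and 5 were apart and higher. Insig2, which ties sterol sensing to ERAD of HMG-CoA reductase, stood at 11.7, 6.25 and 10.7 in WT NO, 17.3, 20.5 and 18.8 in KO NO, 12.8, 15.8 and 14.3 in WT RA and 25.3, 21.3 and 27.5 in KO RA, a mean log2 fold change of 0.88 ± 0.174 (SE), adjusted p = 0.0177. Rnf5, a ubiquitin ligase of the ER membrane on chromosome 17, stood at 45.6, 37.8 and 41.1 in WT NO, 23.7, 32.8 and 26.2 in KO NO, 52.9, 52.4 and 46.7 in WT RA and 25.5, 26.8 and 31.2 in KO RA, a mean of −0.73 ± 0.136 (SE), adjusted p = 0.0142. Erlin1 (0.68, adjusted p = 0.0521), Ubxn4 (0.55, 0.0821) and Yod1 (0.75, 0.116) were apart and higher but not called. With KO RA replicate 3 left out, 9 genes of this list were called higher and 3 lower.

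Chaperones and targets of the stress sensors were not among the shared genes with all libraries. Of 31 tested ER chaperones and folding enzymes, 27 had a mean log2 fold change above 0. The list median was 0.06 in untreated and 0.33 in RA-treated cells. EdgeR called 0 of these genes in either direction, the unadjusted p was under 0.05 in 5 higher and 1 lower gene, and Hsp90b1 alone was apart (0.79, adjusted p = 0.182). Leaving out KO RA replicate 3, 1 of them was called higher and 2 lower, and Hsp90b1 had an adjusted p of 0.0296 at a log2 fold change of 0.39. Hspa5, the chaperone BiP, stood at 432, 484 and 335 in WT NO, 489.9, 504 and 447 in KO NO, 289, 352 and 326 in WT RA and 475, 374 and 709 in KO RA, a mean log2 fold change of 0.45 ± 0.194 (SE), adjusted p = 0.247. The stress factor Ddit3 (CHOP) overlapped between KO and WT after RA, at 4.895, 7.65 and 8.94 in WT NO, 17.8, 10.6 and 12.5 in KO NO, 10.3, 32.8 and 13.7 in WT RA and 28.4, 17.7 and 50.4 in KO RA, a mean of 0.84 ± 0.339 (SE), adjusted p = 0.209. Atf4 (0.11 ± 0.178 (SE), adjusted p = 0.799) and Xbp1 (0.50 ± 0.165 (SE), adjusted p = 0.1295) did not pass the test either, and the sign of Atf4 turned in 3 alternatives.

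Of 43 tested ATF4 targets, 0 were called, the unadjusted p was under 0.05 in 8 higher and 1 lower gene, and Atf5 (0.77, adjusted p = 0.0666) and Cebpg (0.41, 0.194) were apart and higher. The mean log2 fold change was above 0 in 35 of the 43. The list median was 0.44 in untreated and −0.08 in RA-treated cells, against −0.02 and 0.09 over all tested genes. This list had 7 called higher without KO RA replicate 3. Of 31 tested genes of sterol synthesis, 0 were called, the unadjusted p was under 0.05 in 4 higher and 3 lower genes, and Acaca, the first enzyme of fatty acid synthesis, was apart and lower (−0.70, adjusted p = 0.225). Of the sterol genes, 4 were called higher and 1 lower without KO RA replicate 3. These p-values do not show that the genes were equal between KO and WT.

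Imprinted genes, expressed from one parental copy, were another group with several shared genes. Of 38 tested, 7 were called higher and 2 lower, 23.7% in all against 3.99% of all tested genes. Of these called genes, 6 higher and 1 lower were also apart and so were shared genes. Apart and higher, called or not, were 7 genes. Without KO RA replicate 3, 11 were called higher and 2 lower. Peg10 and its neighbour Sgce on chromosome 6, both active on the paternal copy, stood at 40.9, 47.4 and 22.7 in WT NO, 123, 90.5 and 127 in KO NO, 38.3, 39.9 and 36.5 in WT RA and 323, 258 and 146 in KO RA, and at 4.75, 4.84 and 8.21 in WT NO, 24.5, 29.4 and 30.6 in KO NO, 10.96, 10.9 and 14.5 in WT RA and 46.04, 37.9 and 157 in KO RA. Their mean log2 fold changes were 2.14 and 2.49 (adjusted p = 0.00101 and 0.00292). The cell cycle inhibitor Cdkn1c rose by 3.33 (adjusted p = 0.0159), the Notch ligand homologue Dlk1 by 4.34 (0.0172) and the noncoding RNA H19 by 1.46 (0.0218). For Dlk1 the value was 5.00 without WT NO replicate 1 and 5.69 without WT RA replicate 1. Peg13, a noncoding RNA, stood at 0.423, 0.407 and 1.83 in WT NO, 0 in all 3 KO NO libraries, 0.385, 0.291 and 0.287 in WT RA and 0 in all 3 KO RA libraries.

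Several shared genes were neighbours in the genome. Among tested genes in order of position, 30 runs of 2 or 3 adjacent shared genes changed the same way, 17 of them higher and 13 lower, with 64 genes in all. Of the 13 lower runs 7 lay on chromosome 17, whose genes were lower as a whole. The run of Ddx3y and Gm20775 reached from 1260715 to 10643107 on the Y chromosome. Whether there were more runs than without clustering was not tested. On chromosome 4 the run was Cdkn2a, Gm12610 and Cdkn2b. Cdkn2a, which encodes the cell cycle inhibitors p16 and ARF, stood at 50.4, 49.8 and 68.1 in WT NO, 236, 213 and 198 in KO NO, 53.7, 59.3 and 52.6 in WT RA and 152, 165 and 201 in KO RA, a mean log2 fold change of 1.79 ± 0.154 (SE), adjusted p = 1.24e-04. Cdkn2b rose by 1.54 ± 0.304 (SE), adjusted p = 0.0177. On the X chromosome, Xlr3a and Xlr3b rose by 4.84 and 5.03 on the log2 scale (adjusted p = 0.00963 and 0.00459), but they are close copies whose reads could have been split between them. KO RA replicate 3 stood at 118 and 78.6 CPM, above all other KO libraries, and without it the values were 3.98 for Xlr3a and 4.16 for Xlr3b. Luzp4 lay in a run of 3 with Gm15097 and Gm15091, at 0 to 0.0478 CPM in WT and 0.135 to 4.16 CPM in KO libraries.

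In the cell cycle list of 34 tested genes, 11.8% were called, against 3.99% of all tested genes. Cdkn2a and Cdkn2b were the 2 called higher. The 2 called lower were Cdkn1b, the inhibitor p27, at −0.82 (adjusted p = 0.0158), and Ccnd3, a D cyclin on chromosome 17, at −0.79 (0.0436). In this list 2 were called higher and 8 lower without KO RA replicate 3. Of 59 tested genes of autophagy and lysosomes, 2 were called higher and 1 lower, 5.08% in all and near the 3.99% of all tested genes. Without KO RA replicate 3 the counts were 11 and 4. The lysosomal enzyme Hexa, which takes part in the breakdown of gangliosides, stood at 0.916, 0.481 and 12.9 in WT NO, 77.1, 67.98 and 73.1 in KO NO, 0.288, 1.26 and 0.382 in WT RA and 60.7, 69.2 and 17.1 in KO RA, a mean log2 fold change of 5.08 ± 0.817 (SE), adjusted p = 0.00628. In Hexa, WT NO replicate 3 was above the other WT libraries, and without it the mean was 6.46. The other higher one was Gusb, a glucuronidase of lysosomes, which rose by 1.38 ± 0.163 (SE), adjusted p = 0.00127.

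Foxd3, Zic2 and Pax6 were 3 transcription factors among the 15 lower genes with the smallest p. Foxd3, a factor of neural crest and pluripotent cells (ENSMUSG00000067261, chromosome 4, 99544536 to 99546859), stood at 5.74, 9.5 and 19.04 in WT NO, 0.352, 0.178 and 0.195 in KO NO, 2.02, 1.26 and 3.73 in WT RA and 0.0903, 0.102 and 0.297 in KO RA, a mean log2 fold change of −4.78 ± 0.467 (SE), adjusted p = 3.94e-04. Zic2, a zinc finger factor needed for neural tube closure (ENSMUSG00000061524, chromosome 14, 122711827 to 122717264), stood at 11.8, 8.65 and 13.6 in WT NO, 2.31, 4.09 and 3.02 in KO NO, 19.6, 13.3 and 16.5 in WT RA and 2.75, 1.57 and 0.496 in KO RA, a mean of −2.58 ± 0.324 (SE), adjusted p = 0.00181. Its neighbour Zic5 fell by 1.74 on the log2 scale (adjusted p = 0.00872). Pax6, a patterning factor of the forebrain and eye (ENSMUSG00000027168, chromosome 2, 105499234 to 105530952), stood at 9.297, 8.797 and 4.12 in WT NO, 0.791, 1.096 and 2.01 in KO NO, 11.8, 14.6 and 14.9 in WT RA and 4.33, 1.84 and 2.78 in KO RA, a mean of −2.36 ± 0.316 (SE), adjusted p = 0.00244. In Pax6, WT NO replicate 3 was less than its replicates and still above all KO NO libraries.

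In the list of neural progenitor factors, 0 of 46 tested genes were called higher and 5 lower, 10.9% in all against 3.99% of all tested genes. The median log2 fold change of the list was −0.09. Beside Zic2, Pax6 and Zic5, the lower ones were Hes6 and Pbx2, a partner of HOX factors on chromosome 17, at −0.90 (adjusted p = 0.00616). With KO RA replicate 3 left out, 4 were called higher and 6 lower. The list median was −0.59 in untreated and 0.38 in RA-treated cells, so that the list did not move one way in both treatments.

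The other leading lower genes have varied roles. Gata4, a factor of endoderm and heart, stood at 5.78, 5.17 and 3.72 in WT NO, 0.937, 1.096 and 1.12 in KO NO, 3.61, 4.66 and 4.11 in WT RA and 2.62, 1.91 and 2.08 in KO RA, a mean log2 fold change of −1.56 ± 0.203 (SE), adjusted p = 0.00206. Mccc2, a subunit of the carboxylase that breaks down leucine, stood at 11.6, 9.35 and 6.897 in WT NO, 0.439, 0.355 and 0.112 in KO NO, 11.1, 11.1 and 14.6 in WT RA and 0.361, 0.0681 and 1.49 in KO RA, a mean of −4.71 ± 0.556 (SE), adjusted p = 0.00129, and −5.41 without KO RA replicate 3. The cytidine deaminase Cda stood at 5.14, 5.14 and 4.24 in WT NO, 0.937, 0.918 and 0.921 in KO NO, 7.596, 6.26 and 6.21 in WT RA and 2.03, 2.86 and 1.29 in KO RA. The tight junction genes Cldn11 and Marveld2 were lower too, Cldn11 at 1.16, 2.44 and 0.5799 in WT NO, 0.0586, 0 and 0 in KO NO, 4.71, 6.21 and 7.31 in WT RA and 0.135, 0.273 and 0.496 in KO RA, and Marveld2 at 1.23, 1.26 and 1.22 in WT NO, 0.0586, 0 and 0.0558 in KO NO, 0.865, 0.485 and 1.099 in WT RA and 0.0451, 0 and 0 in KO RA. In the KO libraries Marveld2 had at most 3 counts, so that no fold change is given. Rgl3, an activator of Ral proteins, fell by 2.52 on the log2 scale (adjusted p = 0.00207), and the factor Mafa fell by 1.63 (0.00269).

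**Figure D4:**
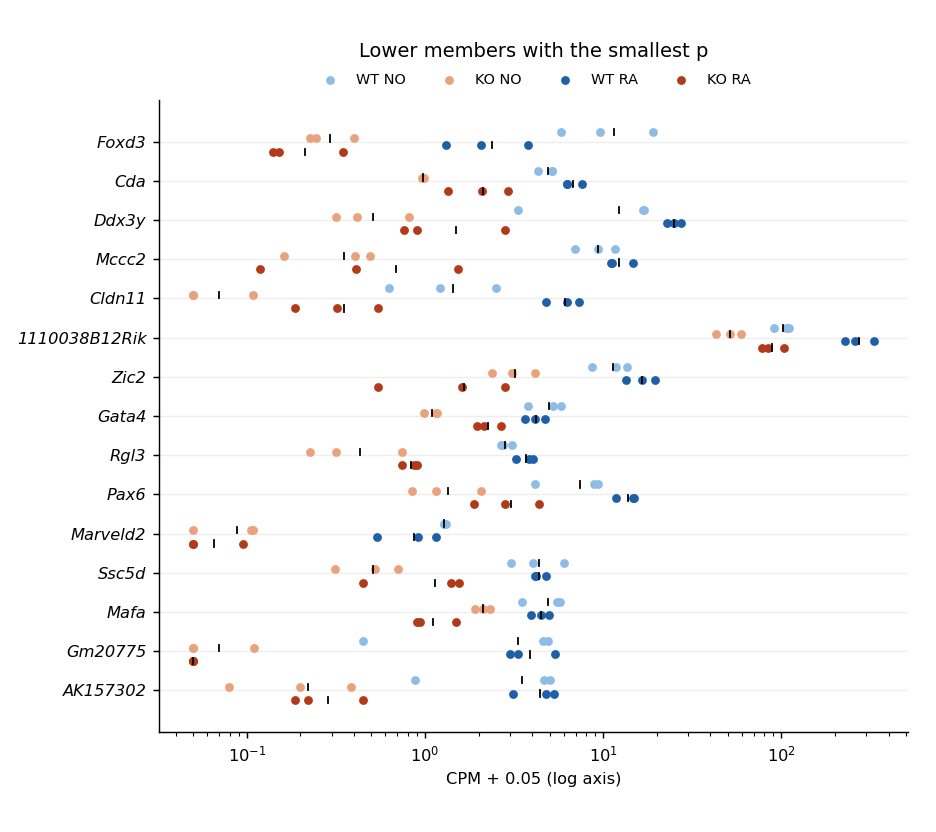
CPM (log axis, 0.05 added) of the 15 lower genes with the smallest p in each library of the 4 groups, with the group mean as a black bar. In every gene the KO points of a treatment lie left of its WT points. WT NO replicate 3 lies left of its replicates for Ddx3y, Gm20775, AK157302, Cda, Cldn11, Gata4, Mafa, Marveld2, Mccc2, Pax6 and Rgl3. It lies right of them for Foxd3, Ssc5d and Zic2, and between them for 1110038B12Rik.

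Markers of other cell types were counted as a check of the cells. Of 28 tested mesenchymal markers, 2 were called higher (Cnn1 and Lox) and 0 lower. The summed level of this list was 531 to 620 CPM in WT NO, 525 to 740 in KO NO, 517 to 922 in WT RA and 1031 to 3451 in KO RA. Of 27 tested pluripotency markers, 2 were called higher (Tbx3 and Platr10) and 1 lower. Of 35 neuronal markers, 1 was called higher (Slc17a6, the glutamate transporter VGLUT2) and 1 lower (Mapt, the protein tau, −2.13 ± 0.513 (SE), adjusted p = 0.0432). Astroglia and oligodendrocyte markers had 2 called higher of 13 (Gstp1 and Penk), the neural crest list 1 higher (Ets1) and 1 lower (Foxd3) of 13, the endoderm list 1 lower (Gata4) of 15, the endothelial list 0 of 10 and the haematopoietic list 1 higher (Cd34) of 8. Cd34 held at most 3 counts in every WT library. It stood at 0.0296 to 0.146 CPM in KO NO and at 2.38 to 3.27 CPM in KO RA, so its untreated change rests on few counts. In 3 higher and 0 lower endothelial markers the unadjusted p was under 0.05. The share called was 7.14% of mesenchymal, 11.1% of pluripotency, 5.71% of neuronal and 6.67% of endoderm markers. It was 15.4% in the glial list, 15.4% in the neural crest list and 12.5% in the haematopoietic list, against 3.99% of all tested genes. Without KO RA replicate 3 the counts of higher and lower genes were 4 and 0 for mesenchymal, 2 and 5 for pluripotency, 3 and 2 for neuronal, 4 and 0 for glial, 2 and 1 for neural crest, 5 and 1 for endoderm, 1 and 0 for endothelial and 1 and 0 for haematopoietic markers. Their part in the other results was not tested.

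Axon guidance, the IGF system, the P2X receptors and ribosomal proteins were the remaining lists. Of 60 tested genes of axon guidance, 1 was called higher (Epha7, 0.94) and 4 lower, 2 of them apart (Sema6c, −1.49, and Unc5a, −1.58), 8.33% in all against 3.99% of all tested genes. In the IGF system 1 of 15 was called higher and apart, the adaptor Irs2 (1.71 ± 0.263 (SE), adjusted p = 0.00482), and 1 was called lower, 13.3% in all. Among the P2X receptors 1 of 3 was called, P2rx4. When KO RA replicate 3 was omitted, 6 axon guidance genes were called higher and 4 lower, 5 IGF genes higher and 1 lower, and 1 P2X receptor higher. Of 77 ribosomal protein genes, 0 were called higher and 1 lower, Rps10 on chromosome 17 (−0.94, adjusted p = 0.0259). When KO RA replicate 3 was left out, 54 ribosomal protein genes and 7 of 13 mitochondrially encoded genes were called lower, against 1 and 0 with all libraries.

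The lower genes were concentrated on chromosome 17. This chromosome held 794 of the tested genes (4.81%) and 68 of the 227 lower shared genes (29.96%), but 5 of the 304 higher ones (1.64%). Of its tested genes, 156 were apart and lower (19.6%) and 7 apart and higher. The Y chromosome had 3 of 10. On the 18 chromosomes other than 13, 17, Y and the mitochondrial one, the share apart and lower ran from 0.817 to 5.63%. The median log2 fold change of all tested genes of chromosome 17 was −0.47 in untreated and −0.46 in RA-treated cells, against −0.15 to 0.17 and −0.06 to 0.30 on those 18 chromosomes. It was −0.48 over both treatments without KO RA replicate 3.

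The shift ran along the whole of chromosome 17. In 15 consecutive windows of about 50 tested genes each, the median log2 fold change lay between −0.64 and −0.29 in untreated and between −0.82 and −0.20 in RA-treated cells. For the 338 genes of the chromosome with a mean of at least 10 CPM, each library was set against the mean of the WT libraries of its treatment. The median difference in log2(CPM + 1) was −0.10 to 0.06 in WT NO, −0.44 to −0.43 in KO NO, −0.03 to 0.02 in WT RA and −0.97 to −0.47 in KO RA, where replicate 3 was lowest. Thus every KO library lay under every WT library. Shifts of parts of other chromosomes are hidden in their medians. In windows 10 to 13 of chromosome 6 the median was −0.49 to −0.30 in untreated and −0.38 to −0.23 in RA-treated cells. In windows 1 and 2 of chromosome 12 the median was −0.24 and −0.58 in untreated and −0.25 and −0.38 in RA-treated cells. On chromosome 11, 21 of 25 windows were below 0 in untreated and 15 in RA-treated cells. In windows 11 to 13 of chromosome 1 the median was above 0, at 0.41 to 0.51 in untreated and 0.33 to 0.48 in RA-treated cells.

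The lower shared genes of chromosome 17 changed by little, with a median of −0.93 and 47 of 68 under 2-fold. Those of the other chromosomes had a median of −1.11, with 70 of 159 under 2-fold. Of the lower genes named above, Uhrf1, Rnf5, Pbx2, Ccnd3 and Rps10 lie on chromosome 17, as does the noncoding RNA 1110038B12Rik (−1.31 ± 0.163 (SE), adjusted p = 0.00164). The number of copies of the chromosome in the KO line was not analysed here, and its part in these results was not tested.

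Chromosome 13, which carries Faf2, had the next highest share apart and lower when the Y chromosome, with 10 tested genes, is left aside. Of its 648 tested genes 64 were apart and lower (9.88%) and 6 apart and higher, and 26 were lower shared genes, among them Mccc2, Marveld2 and Unc5a. The median log2 fold change was −0.36 in untreated and −0.15 in RA-treated cells. Window medians were below 0 in all 12 windows in untreated cells and in 10 of 12 after RA. For 244 of its genes, the median difference per library, taken as on chromosome 17, was −0.42 to −0.29 in KO NO and −0.50 to −0.33 in KO RA. The WT libraries lay at −0.21 to 0.12 in WT NO and −0.04 to 0.04 in WT RA, so that here too every KO library was under every WT library. Without KO RA replicate 3 the median of chromosome 13 was −0.40 over both treatments, and 118 genes were apart and lower. After RA all windows were below 0 on chromosome 17 but not on chromosome 13.

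**Figure D5:**
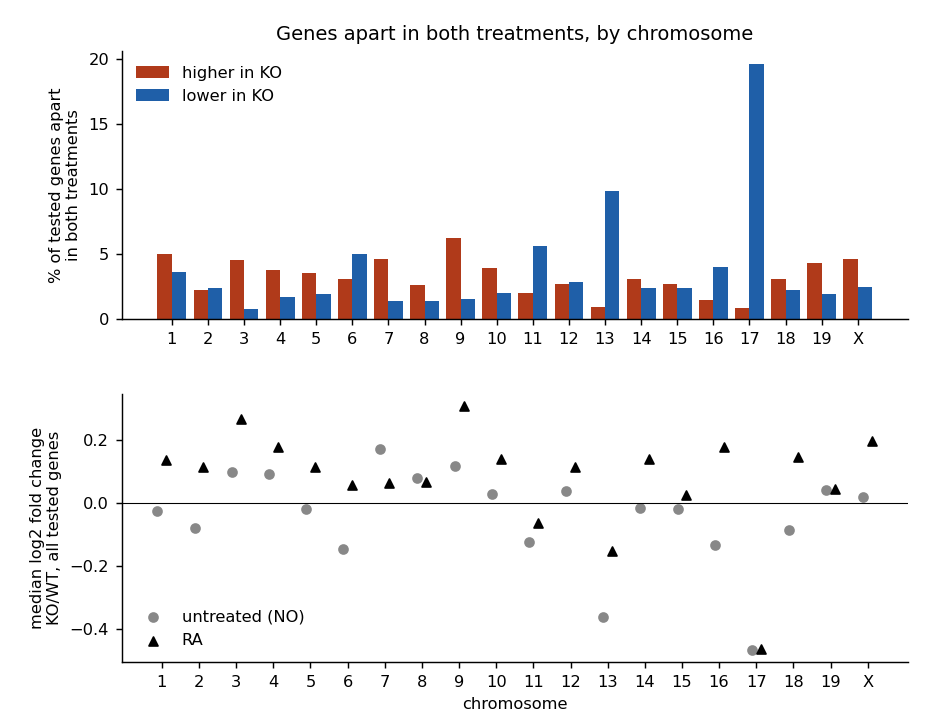
Top, percent of tested genes of chromosomes 1 to 19 and X that are apart in both treatments, higher (red) or lower (blue) in KO. Bottom, median log2 fold change over all tested genes of the chromosome in untreated (grey circles) and RA-treated cells (black triangles). The Y chromosome, where 3 of 10 tested genes (30%) are apart and lower, and the mitochondrial one are not drawn. Of those drawn, chromosome 17 has the largest lower share, 19.6%, and the lowest medians, and chromosome 13 has the next share, 9.88%.

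Of 10 tested genes of the Y chromosome, 3 were lower shared genes, the third being Gm47283 with log2 fold changes of −0.96 and −2.15. Ddx3y, an RNA helicase, stood at 16.6, 16.97 and 3.296 in WT NO, 0.762, 0.267 and 0.363 in KO NO, 24.8, 22.8 and 27.5 in WT RA and 0.858, 0.715 and 2.78 in KO RA, a mean log2 fold change of −4.46 ± 0.508 (SE), adjusted p = 0.00101. Gm20775 stood at 4.86, 4.55 and 0.397 in WT NO, 0, 0.0592 and 0 in KO NO, 3.27, 2.96 and 5.303 in WT RA and 0 in all 3 KO RA libraries. The KO cells still expressed other genes of this chromosome, with Eif2s3y at 26.7 to 28.8 CPM in KO NO and 19.5 to 134 in KO RA, Uty at 9.73 to 10.1 and 8.31 to 40.7, and Kdm5d at 8.35 to 9.39 and 9.16 to 9.91. In WT NO replicate 3, Ddx3y, Eif2s3y, Uty and Kdm5d were each lower than in both other WT NO libraries, and Ddx3y and Gm20775 were called also without that library.

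In a further 221 genes (1.34% of tested genes) the libraries were apart in both treatments but in opposite directions. The mean effect does not say whether the effect had the same size in both treatments, and the interaction was tested for this. The rule uses the same values and leaves out genes whose effect turned round. The counts below therefore do not show that the effects were equal in size. No shared gene was called for the interaction by edgeR (0 of 531), the smallest adjusted p among them being 0.320, for Mir9-3hg. At an unadjusted p under 0.05 there were 69 (12.99%), against 1423 of all tested genes (8.62%), and DESeq2 called 6 in its own set of shared genes. EdgeR called 17 of the 1706 shared genes of the fit without KO RA replicate 3. The median absolute difference between the log2 fold changes of the 2 treatments was 0.80 in the higher and 0.42 in the lower genes. The effect was larger after RA in 178 of 304 higher and in 128 of 227 lower genes.

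The contrast for RA over both genotypes did not enter the choice of genes. Its test used the same libraries and the same estimate of spread, however, and the choice favours genes with little spread. The choice of genes therefore shapes the shares below. It was called in 42 of the 304 higher (13.8%) and in 34 of the 227 lower genes (14.98%), against 8.54% of all tested genes. Of the 42, 28 were higher after RA, and of the 34, 13 were. Thus most shared genes were not called for RA.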

How the data were processed

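Poly(A) RNA of 12 cultures was sequenced, and the authors ran nf-core/rnaseq with default settings (STAR and Salmon, GRCm39). The deposited expected counts per gene are scaled for gene length and not normalized between libraries. Counts were rounded to whole numbers and fitted in edgeR 4.0.16 (R 4.3.3) with filterByExpr, TMM factors, 1 coefficient per group and robust quasi-likelihood F tests of ((KO NO − WT NO) + (KO RA − WT RA))/2, with Benjamini-Hochberg adjustment over all 16502 genes. SE came from the fold change and the F statistic. A group whose libraries held 0 to 3 counts each was at the floor, and "at least" folds are against 3 counts per library. CPM compares a gene between libraries, and these limits cover counting error only. Code for the fit was tested on simulated data. Positions come from GENCODE M39, with 16444 tested genes matched.

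Alternatives were DESeq2 1.42.0, its size factors in edgeR, other count filters, limma-voom 3.58.1 with quality weights, an additive model, a replicate block, CPM without TMM factors and each library left out. Named genes were Faf2, the 15 higher and 15 lower shared genes with the smallest p, the 5 and 5 of largest change with a mean of at least 1 CPM, up to 4 apart per list and direction of 27 lists, 3 apart in opposite directions, and Hspa5, Ddit3, Atf4 and Xbp1. Further germline, glutathione, imprinted, X-linked, Y-linked and chromosome 17 genes were named after their values were seen. A result that this rule would name is not reported here. The genes, lists and tests were chosen with earlier results of these data known.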

Additional observations from a re-analysis of the deposited data

Results flagged for a closer look

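Of the 221 genes apart in opposite directions, 118 were above WT in untreated and below WT in RA-treated cells and 103 were the other way round. The 3 with the smallest interaction p stood out because all 3 KO libraries were on one side of WT without RA and on the other side after RA. Mt2, a metallothionein that binds zinc and other metals, stood at 43.5, 40.7 and 62.9 in WT NO, 125, 84.7 and 92.8 in KO NO, 167, 145 and 109.6 in WT RA and 36.97, 47.2 and 35.1 in KO RA CPM. Its log2 genotype effect after RA minus that in untreated cells was −2.86 ± 0.376 (SE), adjusted p = 0.0825. Gxylt2, a xylosyltransferase acting on Notch, stood at 0.845, 1.48 and 1.25 in WT NO, 0.264, 0.237 and 0.307 in KO NO, 3.22, 4.17 and 2.29 in WT RA and 9.705, 6.54 and 8.62 in KO RA, with a difference of 3.48 ± 0.484 (SE), adjusted p = 0.0825. Nkx1-2, a homeobox factor of the posterior epiblast, stood at 5.25, 4.47 and 8.42 in WT NO, 1.26, 1.63 and 0.838 in KO NO, 0.481, 0.679 and 0.478 in WT RA and 1.44, 1.33 and 1.29 in KO RA, with a difference of 3.59 ± 0.534 (SE), adjusted p = 0.0825. None of the 3 passed the interaction test in edgeR, where 0 genes did and 1423 had an unadjusted p under 0.05.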

How the results depend on the processing

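With all libraries, 380 genes were called higher and 278 lower for the mean genotype effect. DESeq2 called 980 and 870, of which 472 and 486 were apart in both treatments, with 6 interactions. Limma-voom with quality weights called 2359 and 2208 (526 and 571 apart, 30 interactions). At least 10 counts in every library left 116 and 167 called, 277 apart and higher, and 80 and 139 shared genes. With only 1 count required in any library, 154 were called lower and 133 of these were apart. CPM without TMM factors put 479 genes apart and higher and 305 apart and lower, in place of 552 and 607. Without KO RA replicate 3, 1314 and 1452 genes were called, 1151 and 990 were apart and 17 shared genes had an interaction. Without KO RA replicate 3 and WT NO replicate 3 together, chosen after seeing the data, these counts were 2073 and 1982, 1716 and 1490, and 106, with 1406 higher and 1287 lower shared genes.

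With 1 library left out, the ranges were 215 to 1314 called higher, 84 to 1452 called lower, 634 to 1151 apart and higher, 686 to 990 apart and lower, 204 to 886 higher and 78 to 820 lower shared genes, and 0 to 17 interactions. Deviations from the group means correlated at −0.17 to 0.07 in 18 pairs of same-numbered replicates, and at −0.08 to 0.14 in 36 pairs of different number. With 3 libraries per group this cannot tell whether same-numbered cultures shared a passage. With the replicate block 143 genes were called lower and 126 lower genes were shared. Faf2, at an adjusted p of 0.0802, passed with DESeq2 (log2 fold change −0.64), limma-voom (−0.58), without KO RA replicate 3 (−0.54) and without both libraries (−0.58), and lay between −0.73 and −0.54 with 1 library left out. Atf4 turned to −0.055 with limma-voom and −0.081 without both libraries, and lay between −0.0090 and 0.20 with 1 library left out, never past the threshold. Of 1839 values of named shared genes under alternatives, 1677 kept the call, 162 kept the direction without it and 0 reversed. The cause of these changes was not tested. Genes with few counts are limited by depth: 75 higher shared genes had at most 3 counts in every WT library.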
